A study of Mus musculus with 6 samples.

Results

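The cytosolic ribosomal proteins of mouse liver were followed in mice given LPS with GalN and in mice given LPS alone. The genes were taken from the target descriptions of the arrays: a description had to name a ribosomal protein with L, S or P and a number. Descriptions with the words mitochondrial, kinase, similar to, pseudogene or hypothetical were left out. This gave 176 target rows and, with the row of highest mean log2 intensity kept per gene name, 84 genes out of 36680 features on the array. By role, 42 were proteins of the large subunit, 28 of the small subunit and 2 of the stalk. Another 10 were paralogs or further copies. The remaining 2, Rps19bp1 (a protein that binds Rps19) and Mrps7 (a mitochondrial protein whose description misspells the word), met the rule but are not cytosolic ribosomal proteins. Rplp0, Fau and Rpsa, which belong to the cytosolic ribosome, carry other descriptions and are given apart.

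Each of 6 wild-type C57 BL/6 male mice, aged 9 to 10 weeks, gave 1 liver RNA sample on 1 single-colour NimbleGen array. In the LPS/GalN group, 3 mice received 0.01 µg of LPS together with 20 mg of GalN. In the LPS group, 3 mice received 0.01 µg of LPS. All livers were taken as treated for 2.5 h, and the labels describe the replicates of each group as separate treatments. LPS is lipopolysaccharide, a bacterial cell wall component sensed through Tlr4. GalN is D-galactosamine, which hepatocytes metabolise at the cost of their uridine nucleotides, so that their RNA synthesis falls. Both groups carry LPS, and untreated mice or mice given GalN alone were not analysed here, so the comparison is that of GalN added to LPS.

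The cytosolic ribosome reads mRNA in its small subunit and joins amino acids in its large subunit. Its protein subunits are made in near equal numbers, and their mRNAs are long-lived and among the most abundant of the cell. Most of these mRNAs begin with a C followed by a run of pyrimidines, the terminal oligopyrimidine (TOP) tract, through which mTOR and Larp1 control their translation. In liver, ribosome production supports the synthesis of plasma proteins and growth after injury.

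The start regions of the genes were searched for the TOP run and for short promoter motifs. Of the 82 genes other than Rps19bp1 and Mrps7, 58 were matched by symbol to RefSeq promoter windows on GRCm38.p6, which run from 250 bases before to 50 bases after each annotated start, and these gave 70 windows. A C followed by at least 4 letters C or T at the annotated start itself stood in 12 of 70 windows (17.1%), against 2.51% of all 32851 windows. Runs that begin some bases to either side of that start were not counted, so 17.1% is not the share of TOP mRNAs. Next come 5 genes with a run at the annotated start, each from 40 bases before the start to 20 after it. They are written 5′ to 3′ on the gene's strand, with the run in capitals. The 5 genes were chosen to span the large subunit, the stalk and the small subunit.
Rpl28, chr7:4792925-4792984, plus strand: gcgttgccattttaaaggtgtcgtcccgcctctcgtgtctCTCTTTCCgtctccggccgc
Rpl38, chr11:114668540-114668599, plus strand: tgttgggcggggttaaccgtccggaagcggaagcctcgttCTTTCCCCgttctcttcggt
Rplp2, chr7:141447611-141447670, plus strand: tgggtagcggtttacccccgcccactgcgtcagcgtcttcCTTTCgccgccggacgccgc
Rps6, chr4:86857348-86857407, minus strand: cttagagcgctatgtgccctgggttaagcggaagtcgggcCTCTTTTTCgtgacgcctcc
Rps18, chr17:33955646-33955705, minus strand: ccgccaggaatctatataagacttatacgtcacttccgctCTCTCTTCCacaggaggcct

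In the whole windows, before and after the start, 3 short motifs were searched on both strands. CTTCCG, the core letters bound by Ets family factors, stood in 42 of 70 windows (60.0%), against 16.9% of all windows. CTTTCC stood in 48.6% of the windows of these genes, against 26.6% of all windows. Both motifs occurred together in 20 windows of these genes, and the share of all windows with both was not counted. TATAAA, the letters of a TATA box, stood in 8.57% of the windows, against 13.6% of all. Below are 4 genes with CTTCCG or its reverse complement in capitals, from 120 bases before the start to 20 after it. Rpl31, Rpl26 and Rpl36a are among the genes with the highest differences between the groups, and Rps18 is among those near 0. Rpl28, also among the highest, had a window but no match in the same stretch. A link between the motif and the differences was not tested.
Rpl31, chr1:39367731-39367870, plus strand: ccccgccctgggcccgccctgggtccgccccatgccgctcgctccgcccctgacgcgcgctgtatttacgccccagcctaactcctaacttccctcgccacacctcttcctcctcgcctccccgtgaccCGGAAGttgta
Rpl26, chr11:68901446-68901585, plus strand: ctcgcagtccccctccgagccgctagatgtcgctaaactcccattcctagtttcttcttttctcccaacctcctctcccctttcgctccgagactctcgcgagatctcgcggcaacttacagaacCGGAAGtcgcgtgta
Rpl36a, chrX:134585534-134585673, plus strand: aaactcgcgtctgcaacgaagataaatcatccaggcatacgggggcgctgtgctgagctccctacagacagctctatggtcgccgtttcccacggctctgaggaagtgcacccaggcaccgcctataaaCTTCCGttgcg
Rps18, chr17:33955646-33955785, minus strand: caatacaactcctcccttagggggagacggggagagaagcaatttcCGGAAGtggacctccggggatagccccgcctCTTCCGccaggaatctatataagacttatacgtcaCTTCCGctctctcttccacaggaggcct
Rps18 holds 3 matches in this stretch, and each of the other 3 genes holds 1, which lies after the annotated start. A match is a string of letters only, and binding of a factor was not measured.

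Across the series, the median intensity of an array lay between 60.4 and 63.1, and the row summarising 5000 random probes, used as background, lay between 31.3 and 34.7. Hepatocyte markers (7 of 7 matched, among them albumin) summed to an intensity of 282802 to 299667 in LPS/GalN livers and 289264 to 306080 in LPS livers, and all 7 were above background on all 6 arrays. Some arrays stood apart by markers of other tissues. Thymus and T cell markers (12 of 15 matched) summed to 897, 19403 and 11533 in LPS/GalN replicates 1 to 3, against 819 to 1265 in LPS livers. Intestine markers (10 of 12 matched) summed to 1862 to 2226 in LPS/GalN livers, against 28500, 31045 and 2308 in LPS replicates 1 to 3. On LPS/GalN replicates 2 and 3, all 12 thymus and T cell markers were above background, and on LPS replicates 1 and 2 all 10 intestine markers were. On the arrays without these high sums, 9 or 10 of the 12 and 7 or 8 of the 10 were above it. The main results are therefore also given without those pairs of arrays.

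All 84 genes were above background on all 6 arrays, with mean log2 intensities of 5.36 to 15.35, and 67 of them lay above 12. Of the 84, 0 passed the test as higher and 0 as lower in LPS/GalN livers (limma, Benjamini-Hochberg adjusted p under 0.05 over all 36680 features), where 0.605% of all features passed as higher and 3.02% as lower (3.63% in all). Also 0 of the 84 had an unadjusted p under 0.05, against 17.5% of all features. This fit draws the variance of each gene toward a value estimated from all features. The p values, SE and intervals are therefore not the replicate scatter of these genes alone. The median SE was 0.22 over the 84 genes and 0.29 over all features. For most of the 84 genes, Rpl31 and Rpl13a among them, the SE of the difference was larger than the SD within either group. In those genes the fit used a larger variance than that of their own replicates. The smallest adjusted p was 0.349. The log2 difference was nevertheless above 0 in 79 of 84 genes, against 55% of all features, with a median of 0.21 (1.15-fold, quartiles 0.14 and 0.30), against a median of 0.05 (quartiles −0.27 and 0.34) over all features. The 95% interval of the difference lay within 2-fold in both directions for 83 of the 84 genes. The exception was Rpl3l, whose signal was near background. With limma's trend and robust options, 2 genes passed as higher, Rpl31 (adjusted p = 0.0308) and Rpl13a (adjusted p = 0.0444), where 2.5% of all features did.

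**Figure D1:**
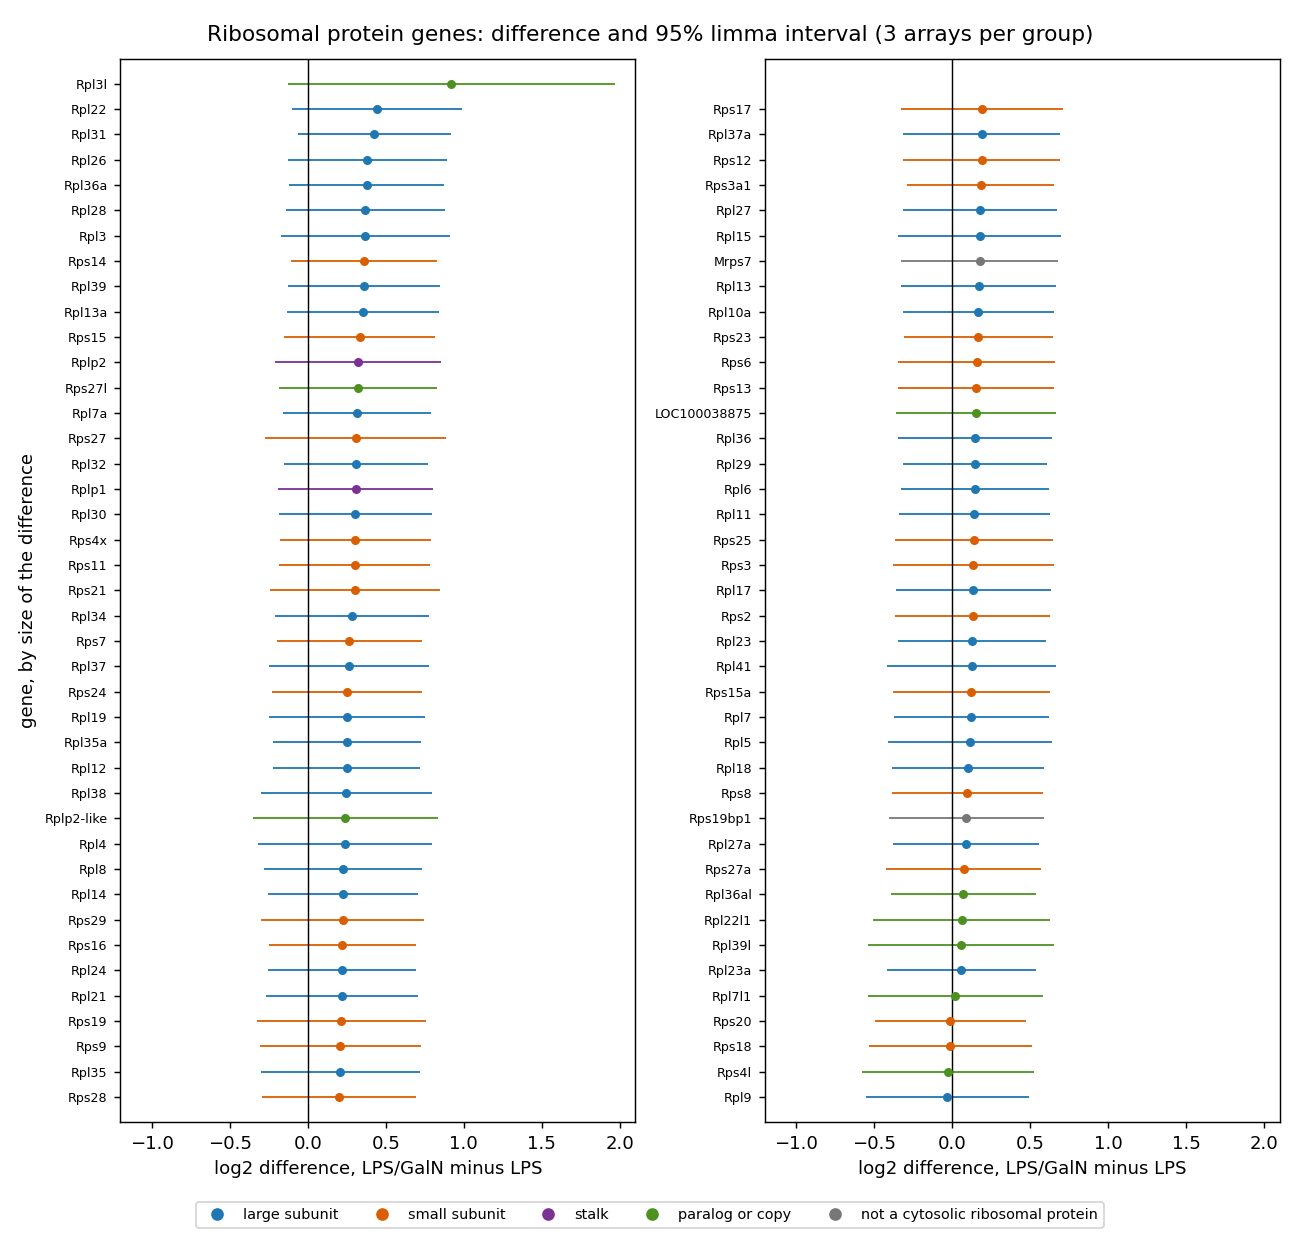
Log2 difference, LPS/GalN minus LPS, of 81 of the 84 genes, ordered by size and coloured by role, with the 95% interval from limma (3 arrays per group). The points of 77 of them lie above 0, and all 81 intervals include 0.

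In 33 of 84 genes every LPS/GalN array was above every LPS array, where 13% of all features were so placed. In 0 of 84 genes every LPS/GalN array was below every LPS array, where 11% of features were. The other bright features also lay mostly above 0. The other features are all those outside the 84 genes, so they include Rplp0, Rpsa and other TOP mRNAs. They also include rows that the rule left out as similar to, pseudogene or hypothetical. Those 164 left-out rows had a median of 0.24, with 152 above 0, and how many lie in each range of brightness was not counted. Among the other 1175 features with a mean log2 between 12 and 14, the range that holds 54 of the 84 genes, the median difference was 0.18, 74.4% were above 0, and 36.3% had all LPS/GalN arrays above all LPS arrays, while 179 of the 1175 had all of them below. Among the 346 other features between 14 and 16, the median was 0.08, 65.0% were above 0 and 22.5% had all LPS/GalN arrays above all LPS arrays. The 54 genes with a mean log2 between 12 and 14 had a median of 0.22, and 92.6% were above 0. In 44.4% of them all LPS/GalN arrays were above all LPS arrays. The middle 50% of the other features ran from −0.02 to 0.32 in that range, and that of the 54 genes from 0.15 to 0.31. These ranges of brightness were chosen after the values were seen.

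**Figure D2:**
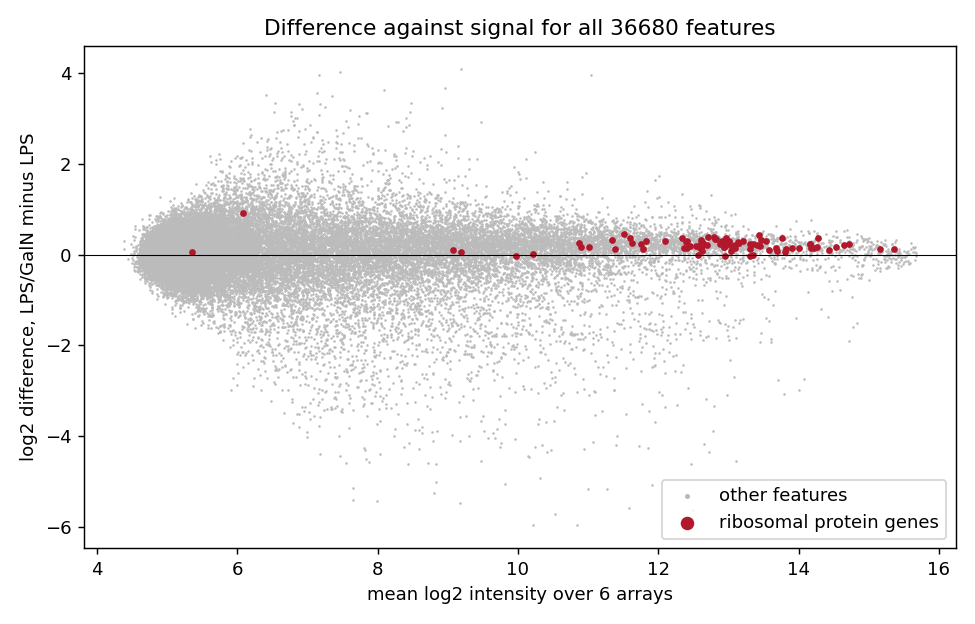
Log2 difference, LPS/GalN minus LPS, against mean log2 intensity over 6 arrays, for the 84 ribosomal protein genes in red and the other features in grey. Most red points lie above a mean log2 of 12, in a narrow band just above 0.

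Array by array, the median deviation of the 84 genes from their own means over 6 arrays was 0.00, 0.18 and 0.10 log2 units in LPS/GalN replicates 1 to 3. It was −0.08, −0.05 and −0.15 in LPS replicates 1 to 3. No LPS median reached an LPS/GalN median, but LPS/GalN replicate 1 lay closer to LPS replicate 2 than to either other LPS/GalN array. On LPS/GalN replicates 1 to 3, 42, 76 and 65 of the 84 genes lay above their own means, against 17, 29 and 7 on LPS replicates 1 to 3. The other features of mean log2 12 to 14 deviated by medians of 0.06, 0.05 and 0.11 in LPS/GalN replicates 1 to 3, against −0.08, −0.07 and −0.08 in LPS replicates 1 to 3. The LPS/GalN arrays with the highest ribosomal protein signal, replicates 2 and 3, were also the arrays with the high thymus and T cell sums. Without them the median difference was 0.12, with 66 of 84 genes above 0. Without LPS replicates 1 and 2, the arrays with the high intestine sums, it was 0.28 with 79 genes above 0. Kupffer cell markers (6 of 6 matched) summed to 7318 to 9962 in LPS/GalN livers and 4468 to 6155 in LPS livers. Endothelium markers (4 of 6 matched) summed to 7716 to 9583 in LPS/GalN livers and 3097 to 5531 in LPS livers. Neither of these sums overlapped between the groups. Of the 4 endothelium markers, Pecam1 (adjusted p = 0.0138) and Egfl7 (adjusted p = 0.0435) rose, with calls that held under 10 and 7 of 16 alternatives, and 0 of the 6 Kupffer cell markers passed the test. The part of each of these cell types in the ribosomal protein values was not tested. In whole-liver RNA, fewer cells of a type and less RNA per cell cannot be told apart, and a change of all RNA together is removed by the normalization between arrays.

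**Figure D3:**
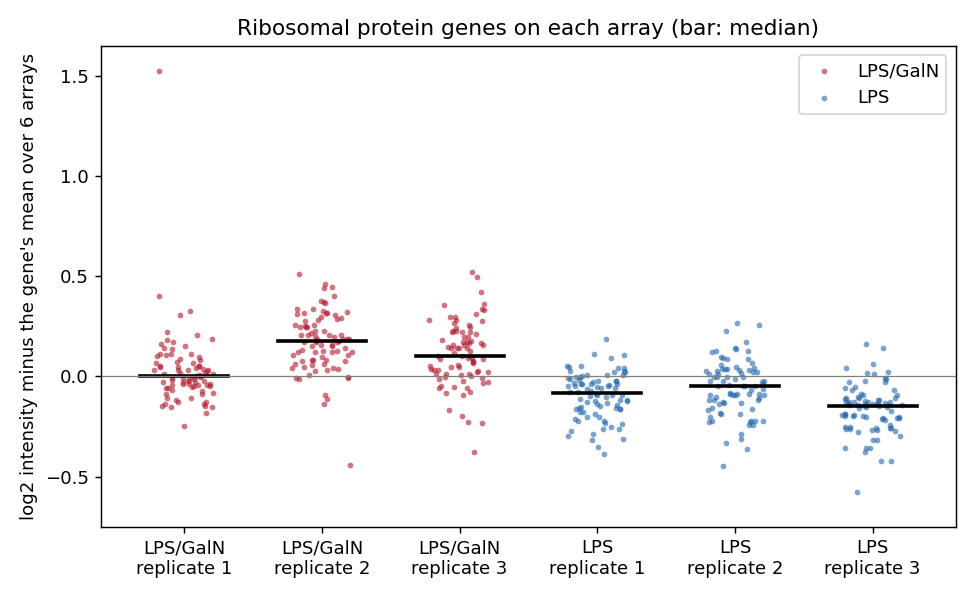
Log2 intensity minus the gene's mean over 6 arrays, for the 84 genes on each array, with a black bar at the median. The medians are 0.00, 0.18 and 0.10 for LPS/GalN replicates 1 to 3 and −0.08, −0.05 and −0.15 for LPS replicates 1 to 3.

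In the large subunit, 41 of 42 genes had a difference above 0, with a median of 0.22 (quartiles 0.15 and 0.30), and 0 of 42 passed the test. In 19 of the 42 every LPS/GalN array was above every LPS array, beside 13% of all features and 36.3% of the other features of mean log2 12 to 14. Rpl31, a protein at the exit of the peptide tunnel (mm9 chromosome 1, 39424993 to 39428211), had log2 intensities of 13.48, 13.69 and 13.80 on the LPS/GalN arrays, against 13.15, 13.20 and 13.33 on the LPS arrays. All LPS/GalN arrays lay above all LPS arrays. The difference was 0.43 ± 0.21 (SE), a 1.34-fold ratio, with an adjusted p of 0.355 (limma). Its other rows were dim, and its 3 rows ran from −0.26 to 0.43.

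Rpl22, which binds RNA and is needed for T cell development in mice (mm9 chromosome 4, 151699961 to 151706587), had log2 intensities of 11.45, 11.82 and 11.93 in LPS/GalN livers. In LPS livers it had 11.45, 11.33 and 11.09. LPS/GalN replicate 1 and LPS replicate 1 nearly coincided, so the groups touch. Its difference was 0.45 ± 0.24 (SE), adjusted p = 0.385 (limma), and its 3 rows ran from 0.42 to 1.10. Since T cell markers were high on LPS/GalN replicates 2 and 3, the arrays where Rpl22 was highest, their part in its value was not tested.

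Rpl26, near the tunnel exit, had 12.75, 13.16 and 13.04 in LPS/GalN livers, against 12.48, 12.66 and 12.66 in LPS livers (difference 0.38, adjusted p = 0.429). Rpl36a, near the site where spent tRNA leaves, had 12.77, 13.12 and 12.83 in LPS/GalN livers, against 12.49, 12.63 and 12.45 in LPS livers (difference 0.38, adjusted p = 0.423). Rpl28 had 14.07, 14.02 and 13.76 in LPS/GalN livers, against 13.61, 13.40 and 13.74 in LPS livers (difference 0.37, adjusted p = 0.446). In these 3 genes every LPS/GalN array was above every LPS array, but in Rpl28 LPS/GalN replicate 3 and LPS replicate 3 nearly coincided. The 3 genes were named for being among the 6 highest differences. Of all features 13% were so placed, and of the other features of mean log2 12 to 14 it was 36.3%.

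Rpl13a, which in human monocytes also leaves the ribosome to silence inflammatory mRNAs (mm9 chromosome 7, 52381291 to 52384091), had log2 intensities of 14.43, 14.43 and 14.48 in LPS/GalN livers. In LPS livers it had 14.23, 14.13 and 13.91. The LPS/GalN arrays lay close together, above all LPS arrays, with a difference of 0.36 ± 0.21 (SE), a 1.28-fold ratio and an adjusted p of 0.442 (limma). Of all features 13% had every LPS/GalN array above every LPS array, and of the other features of mean log2 14 to 16 it was 22.5%. Rpl13a had 2 rows. Both of its rows were above 0, at 0.36 and 0.38.

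Rpl5 and Rpl11, which with 5S rRNA also bind Mdm2, an inhibitor of p53, differed little between the groups. Rpl5 had 11.62, 11.76 and 12.11 in LPS/GalN livers, against 11.83, 11.73 and 11.60 in LPS livers (difference 0.11, adjusted p = 0.847). Rpl11 had 14.17, 14.27 and 14.45 in LPS/GalN livers, against 14.10, 14.24 and 14.11 in LPS livers (difference 0.14, adjusted p = 0.783). The groups overlapped in both genes. Rpl38, which in mice is needed for translation of Hox mRNAs, had 11.70, 12.01 and 11.56 in LPS/GalN livers, against 11.64, 11.63 and 11.26 in LPS livers (difference 0.25, adjusted p = 0.656).

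Rpl41, the shortest ribosomal protein, was the brightest row at 15.46, 15.63 and 15.16 in LPS/GalN livers, against 15.38, 15.41 and 15.08 in LPS livers. Its difference of 0.12 (adjusted p = 0.836) sits near the top of the intensity scale, as does that of Rps2 at 0.13 (adjusted p = 0.808). Rpl9, at the base of the stalk, was the only one of the 42 below 0, at −0.03 (adjusted p = 0.964), with 12.70, 12.99 and 13.10 in LPS/GalN livers, against 12.97, 13.11 and 12.79 in LPS livers.

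In the small subunit, 25 of 28 genes had a difference above 0, with a median of 0.19 (quartiles 0.14 and 0.26), and 0 of 28 passed the test. In 10 of the 28 (35.7%) every LPS/GalN array was above every LPS array, a share near the 36.3% of other features of mean log2 12 to 14 and above the 13% of all features. Rps6, the substrate of the S6 kinases downstream of mTOR, had 14.49, 14.87 and 14.48 in LPS/GalN livers, against 14.49, 14.44 and 14.43 in LPS livers. LPS/GalN replicate 2 alone stood above the rest, and the difference was 0.16 (adjusted p = 0.771). Rps3, which also binds the NF-kappaB subunit p65, had 14.23, 14.42 and 14.09 in LPS/GalN livers, against 14.28, 14.13 and 13.91 in LPS livers (difference 0.14, adjusted p = 0.808).

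Rps19, a protein needed to mature the RNA of the small subunit, had 12.59, 12.90 and 12.92 in LPS/GalN livers, against 12.60, 12.82 and 12.34 in LPS livers (difference 0.22, adjusted p = 0.700). Rps27a, made as a fusion with ubiquitin, had 12.54, 12.87 and 12.58 in LPS/GalN livers, against 12.62, 12.66 and 12.48 in LPS livers (difference 0.07, adjusted p = 0.902). In both genes the groups overlapped, and LPS/GalN replicate 1 lay within the LPS range.

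Of the 3 genes of the small subunit below 0, Rps18 and Rps20 lie in the part of the subunit called the head. Rps18 had 13.20, 13.34 and 13.48 in LPS/GalN livers, against 13.34, 13.57 and 13.14 in LPS livers (difference −0.01, adjusted p = 0.987). Rps20 had 12.39, 12.61 and 12.70 in LPS/GalN livers, against 12.53, 12.60 and 12.59 in LPS livers (difference −0.01, adjusted p = 0.986). In both of them LPS/GalN replicate 1 was the lowest LPS/GalN array, and the groups overlapped.

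The stalk proteins P1 and P2 recruit elongation factors to the ribosome. Rplp1 had log2 intensities of 13.61, 13.91 and 13.56 in LPS/GalN livers, against 13.35, 13.42 and 13.39 in LPS livers (difference 0.31, adjusted p = 0.518). Rplp2 had 12.63, 13.07 and 12.62 in LPS/GalN livers, against 12.35, 12.59 and 12.41 in LPS livers (difference 0.32, adjusted p = 0.528). In both, every LPS/GalN array was above every LPS array and LPS/GalN replicate 2 was the highest. Of all features 13% were so placed, and of the other features of mean log2 12 to 14 it was 36.3%. Rplp0, their anchor on the ribosome, had 13.29, 13.21 and 13.24 in LPS/GalN livers, against 12.97, 13.20 and 13.05 in LPS livers (difference 0.17, adjusted p = 0.734).

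**Figure D4:**
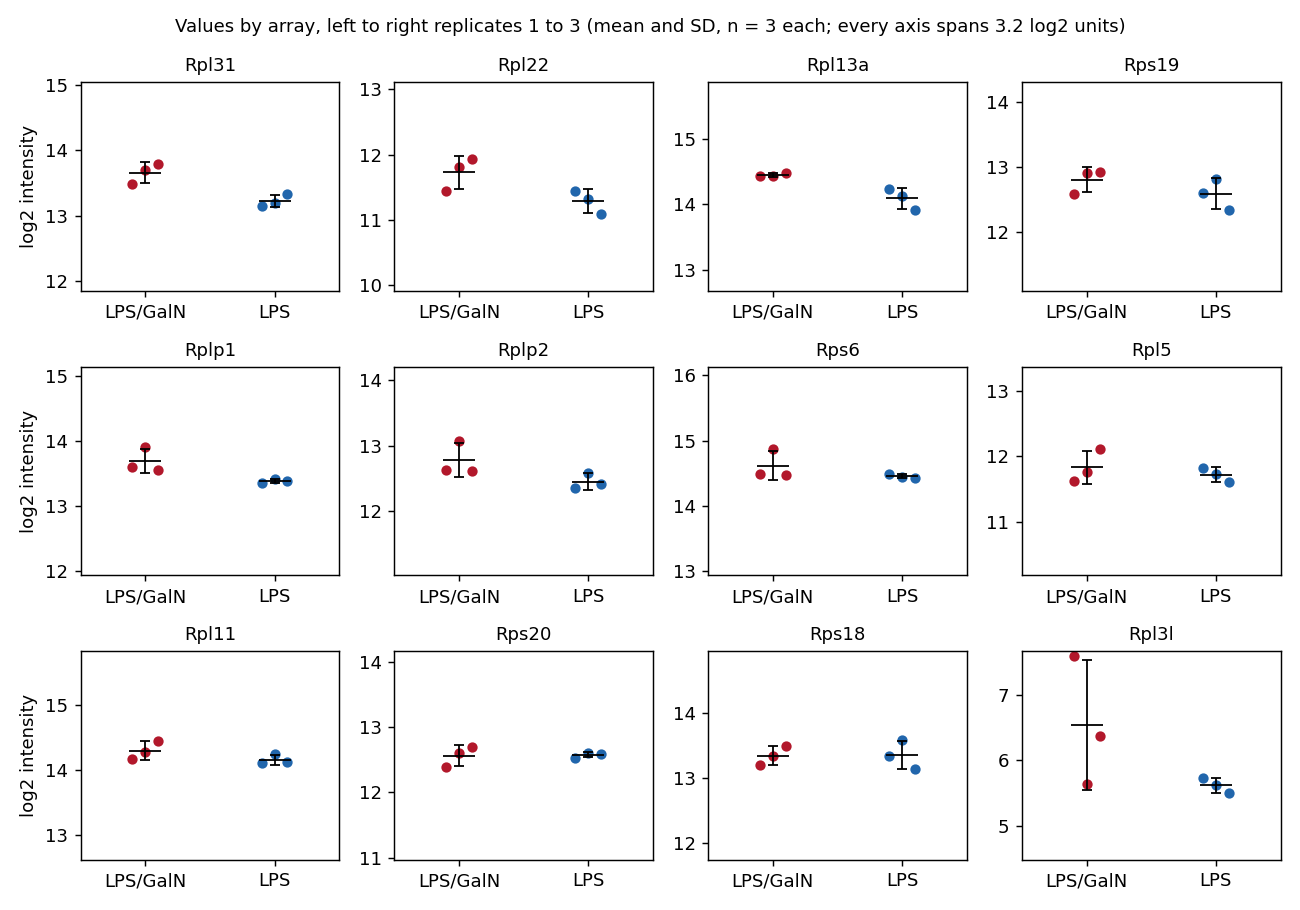
Log2 intensity on each array, replicates 1 to 3 from left to right, for 12 named genes, with LPS/GalN to the left of LPS and bars for the mean and SD (n = 3 each). All axes span the same number of log2 units. Rpl13a and Rplp1 show groups that do not overlap, Rps18 and Rps20 show groups that do, and Rpl3l is spread over the LPS/GalN arrays.

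Of the 10 paralogs and copies, 9 had a difference above 0, with a median of 0.11, and 0 passed the test. Rpl3l, the striated muscle paralog of Rpl3, had the largest difference of the 84 genes, 0.92 ± 0.45 (SE), adjusted p = 0.349 (limma). It rests on 1 array: the log2 intensities were 7.60, 5.64 and 6.37 in LPS/GalN livers, against 5.72, 5.63 and 5.50 in LPS livers. Without LPS/GalN replicate 1 the difference was 0.39, and of its 3 rows only 1 was above 0. Rpl39l, the testis paralog of Rpl39, was the dimmest of the 84 at 5.76, 5.42 and 4.98 in LPS/GalN livers, against 5.40, 5.37 and 5.21 in LPS livers (difference 0.06).

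Rps27l, a p53 target and paralog of Rps27, had 11.67, 11.51 and 11.33 in LPS/GalN livers, against 11.25, 11.01 and 11.27 in LPS livers. Every LPS/GalN array was above every LPS array, though LPS/GalN replicate 3 and LPS replicate 3 lay close, at 11.33 and 11.27. Of all features 13% were so placed, and of the other features of mean log2 10 to 12 it was 30.5%. The difference was 0.32 (adjusted p = 0.503). Rpl22l1, the paralog of Rpl22, had 9.07, 9.33 and 9.26 in LPS/GalN livers, against 8.80, 9.45 and 9.23 in LPS livers (difference 0.06, adjusted p = 0.933). Rpl36al and Rpl7l1 had differences of 0.07 (adjusted p = 0.897) and 0.02 (adjusted p = 0.978). Rps4l, which RefSeq lists as a transcribed pseudogene, had a difference of −0.03 (adjusted p = 0.972).

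The remaining names are further copies. LOC100038875, described as S23-like, overlaps the mm9 interval of Rps23 on chromosome 13, so the rows are not independent measurements of different genes, with a difference of 0.15 (adjusted p = 0.781), beside 0.17 for Rps23 (adjusted p = 0.740). The Rplp2-like row on chromosome 12 had a difference of 0.24 (adjusted p = 0.692). RefSeq lists 304 pseudogenes of ribosomal proteins in mouse, and a probe cannot be taken to tell a gene from a near-identical copy.

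Rows of the same gene were compared to see how far the choice of row mattered. The 55 genes with several rows had all rows above 0 in 36 cases, rows of both signs in 18 and all rows below 0 in 1, which was Rps20. Among the 139 rows with a mean log2 above 10, 132 were above 0, with a median of 0.22. Among the 37 dimmer rows, 21 were above 0, and the range was −1.35 to 1.10. None of the 176 rows passed the test with rows kept apart, where 3.78% of all 44170 rows did, and 6 had an unadjusted p under 0.05. The 164 rows that the rule left out as similar to, pseudogene or hypothetical had a median of 0.24, with 152 above 0 and 0 passing the test (4 with an unadjusted p under 0.05).

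Other genes of protein synthesis were set beside the ribosomal proteins. Elongation factors and other mRNAs of the TOP class (18 of 18 matched) had 17 differences above 0 with a median of 0.27. Of these, 0 passed the test and 2 had an unadjusted p under 0.05, Nap1l1 (difference 0.73, adjusted p = 0.230) and Vim (difference 0.66, adjusted p = 0.224). Eef1a1, which carries aminoacyl-tRNA to the ribosome, had a difference of 0.03 (adjusted p = 0.967), and Pabpc1, the poly(A)-binding protein, one of 0.42 (adjusted p = 0.357). The 76 mitochondrial ribosomal proteins had a median of 0.17, with 54 above 0, and 0 passed the test (7 with an unadjusted p under 0.05). Of the remaining cytosolic genes, Fau had a difference of 0.08 (adjusted p = 0.885) and Rpsa one of 0.30 (adjusted p = 0.530).

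Among regulators of ribosomal proteins and their mRNAs (16 of 17 matched), 1 rose and 1 fell in LPS/GalN livers, where 0.605% of all features rose and 3.02% fell, with a median over the list of 0.05. Tia1, an RNA-binding protein that holds TOP mRNAs back during stress, rose by 1.42 ± 0.24 (SE) on the log2 scale, adjusted p = 0.0147 (limma). Its log2 intensities were 7.41, 7.88 and 7.92 in LPS/GalN livers, against 6.42, 6.18 and 6.35 in LPS livers. Myc, the transcription factor that drives ribosome production, had 7.92, 8.62 and 8.16 in LPS/GalN livers, against 9.52, 9.64 and 9.35 in LPS livers. Its difference was −1.27 ± 0.25 (SE), adjusted p = 0.0341 (limma), with groups that did not overlap. Without LPS/GalN replicates 2 and 3, the difference was 1.10 for Tia1 and −1.59 for Myc. Without LPS replicates 1 and 2 it was 1.39 and −1.12. Each of these fits leaves 1 array in a group, so they cannot tell whether the calls depend on the arrays with high markers of other tissues. Tia1 did not pass without LPS/GalN replicate 2 or 3 or LPS replicate 1 or 2, with adjusted p of 0.0558 to 0.0710. Myc passed without LPS/GalN replicate 2, but it did not pass when any of the other 5 arrays was left out, with adjusted p of 0.0632 to 0.129. With the mean of its rows Tia1 did not pass (adjusted p = 0.169). Tia1 stayed above 0 and Myc below 0 under all 16 alternatives. Mdm2, the p53 inhibitor bound by Rpl5 and Rpl11, had 8.33, 7.63 and 7.98 in LPS/GalN livers, against 9.16, 8.92 and 9.22 in LPS livers. Its difference of −1.12 had an adjusted p of 0.0559 and did not pass the test. Mtor and Larp1 had differences of −0.04 (adjusted p = 0.959) and −0.14 (adjusted p = 0.785).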

How the data were processed

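According to the submitters' processing notes and per the file headers, the authors deposited RMA intensity values on the linear scale, 1 file per array, with background correction, normalization between arrays and summary over probes included in RMA. The RMA version is not given in the sources used here. Of 44170 target rows, 44155 were summarised from 3 probes. The files give mm9 coordinates of genes, not of probes, so the exon or UTR under a probe was not looked up. Symbols were taken from the target descriptions, and 81 of the 84 were found in a RefSeq table used for names only.

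Intensities were converted to log2, and 1 row was kept per gene name, that of the highest mean over 6 arrays, while rows with no name were kept singly (36680 features, 20065 named). The groups were compared, as LPS/GalN minus LPS, with limma 3.58.1 in R 4.3.3 (lmFit and eBayes, group only, two-sided), with Benjamini-Hochberg adjustment over all features and a threshold of 0.05. The fit was tested on simulated data. With 3 arrays per group, their number limits the precision. The genes, lists and alternatives were chosen with earlier results of these data known, so no list was tested as a whole. The rule for named genes took every gene past the threshold, the 6 highest and 6 lowest differences among genes above background on all arrays, the brightest and the dimmest, every paralog, and a set of well-known members given whatever their result (28 genes, beside some that are not reported here). The lowest 6 hold 5 genes below 0 and Rpl7l1. Rpl10 was not among the rows that the rule takes. Rps2 and Rps23 were named after their values were seen. Marker lists for B cells, exocrine pancreas and neutrophils had 5, 6 and 6 matched genes, with median differences of 0.55, −0.39 and −0.06. Past the threshold were 2 of 4 endothelium markers and 0 in each of the other marker lists. Promoter windows came from RefSeq on GRCm38.p6.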

Additional observations from a re-analysis of the deposited data

How the results depend on the processing

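Alternatives were leaving out each array, leaving out pairs of arrays with high markers of other tissues, a replicate block, trend and robust fitting, quantile normalization again, median centring, log2(intensity + 50), a background filter, the mean of all rows or all rows apart, and the deposited series table, which holds 82 of the 84 genes. The count of genes passing was 0 in both directions under each of these, except for 2 higher with trend and robust fitting, and the smallest adjusted p without 1 array was 0.174. The median difference stayed above 0 under each of them. It was 0.15 to 0.25 with 1 array left out, lowest without LPS/GalN replicate 2 and highest without LPS/GalN replicate 1. It was 0.12 without LPS/GalN replicates 2 and 3 and 0.28 without LPS replicates 1 and 2. The lone array left in a group was there assumed to vary like the other group. Leaving out Rps19bp1 and Mrps7, chosen after seeing the data, gave 0 calls and 0.21. Same-numbered arrays did not deviate together (r = 0.0018, −0.0028 and 0.0258 across features, which are not independent). With 3 arrays per group, and markers of other tissues high on some of them, such values cannot exclude a pairing. With the replicate block, 0 genes passed and the median was 0.21, while Tia1 and Myc had adjusted p of 0.0575 and 0.0688. Over all features, 222 passed as higher and 1108 as lower, against 916 and 1635 with trend and robust fitting, 114 and 831 with the replicate block, and 0 and 0 without LPS replicates 1 and 2. Of 474 values of the 28 named genes under these alternatives, 31 over 11 genes changed sign, and the cause was not tested. Without LPS/GalN replicates 2 and 3 these were LOC100038875 (−0.078), Rpl22l1 (−0.089), Rpl5 (−0.095), Rps19 (−0.0018) and Rps27a (−0.052). Without LPS replicates 1 and 2 they were Rpl22l1 (−0.0094), Rpl7l1 (−0.13), Rpl9 (0.14) and Rps18 (0.20). Median centring turned Rpl7l1 (−0.020), the mean of rows turned Rpl9 (0.084), Rps18 (0.022) and Rps4l (0.051), and repeated quantile normalization turned Rps4l (0.031). With 1 array left out, the differences ran from −0.12 to 0.20 for Rpl22l1, −0.13 to 0.26 for Rpl39l, −0.025 to 0.22 for Rpl5, −0.13 to 0.14 for Rpl7l1, −0.12 to 0.085 for Rpl9, −0.12 to 0.10 for Rps18, −0.078 to 0.077 for Rps20, −0.031 to 0.14 for Rps27a and −0.19 to 0.061 for Rps4l. Signal near background limits Rpl3l and Rpl39l.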
